A study of Mus musculus with 8 samples.

Results

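Antigen presentation and dendritic cell genes were followed in RNA from epididymal white fat, the visceral fat pad beside the epididymis of male mice. The 10 genes were taken by name from a deposited table of 37417 genes, and all 10 were found. They are Cd74, H2-Aa, H2-Ab1, H2-Eb1, H2-DMa, H2-DMb1 and Ciita of the major histocompatibility complex (MHC) class II pathway, and Flt3, Cd209a and Itgae, which are used as dendritic cell genes. All 10 passed the filter on low counts and were tested, so no member was lost. The samples were 4 wild-type and 4 knockout C57Bl/6 males on chow, and mice of both groups received tamoxifen. The knockout genotype is given as Adiponectin-Cre ERT2-Atg3 flox/flox, that is, a floxed Atg3 gene with a Cre that tamoxifen activates and that the adipocyte promoter of adiponectin drives. The RNA came from whole tissue, in which adipocytes and immune cells are mixed. The labels state neither the age of the mice nor whether wild-type mice carried Cre or floxed alleles.

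MHC class II molecules are pairs of an alpha and a beta chain that carry peptides from the endocytic route to the cell surface, where CD4+ T cells read them. CD74, the invariant chain, escorts new pairs and blocks their groove, and the H2-DM pair then helps to exchange its remnant for other peptides. CIITA is the coactivator that switches these genes on together, and dendritic cells, macrophages and B cells are the main cells that make them.

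The promoters of class II genes share short boxes, and 3 of these promoters are shown. An X box, bound by the RFX complex, lies upstream of a Y box, bound by NF-Y, and CIITA docks on the proteins assembled there. Promoter windows from RefSeq (build GRCm38.p6) matched 6 of the 10 genes, and the 200 bases before the annotated start are printed for H2-Aa (chr17:34287824-34288023, minus strand), H2-Eb1 (chr17:34305667-34305866, plus strand) and H2-DMb1 (chr17:34152991-34153190, plus strand), each 5′ to 3′. Capitals mark AACNNATG, the core of the X box, ATTGG, the core of the Y box, and TGACGTCA, the cyclic AMP element; matches were searched on both strands, those on the printed strand are marked, and the motifs do not overlap here.
H2-Aa: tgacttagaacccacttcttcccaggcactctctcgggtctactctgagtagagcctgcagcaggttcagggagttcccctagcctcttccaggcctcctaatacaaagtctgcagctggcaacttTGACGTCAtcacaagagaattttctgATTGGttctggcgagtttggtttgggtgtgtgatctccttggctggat
H2-Eb1: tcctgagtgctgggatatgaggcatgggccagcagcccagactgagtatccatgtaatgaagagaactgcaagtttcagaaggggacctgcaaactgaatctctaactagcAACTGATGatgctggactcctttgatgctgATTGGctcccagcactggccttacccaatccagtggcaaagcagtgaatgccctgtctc
H2-DMb1: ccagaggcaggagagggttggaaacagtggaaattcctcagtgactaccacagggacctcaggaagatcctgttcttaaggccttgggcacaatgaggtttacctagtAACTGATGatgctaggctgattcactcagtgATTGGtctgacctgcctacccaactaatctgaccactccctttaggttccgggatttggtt
In H2-Eb1 the X core was followed by the Y core after 22 bases, and in H2-DMb1 after 23 bases. H2-Aa held the Y core and, upstream of it, the cyclic AMP element, but no match to the X core as written. Over the 250 bases before the start, AACNNATG was found in 2534 of 32851 RefSeq windows (7.71%), TGACGTCA in 508 (1.55%) and ATTGG in 11120 (33.8%). The X core with the Y core 15 to 30 bases further on occurred in 40 windows (0.122%) of 39 genes, of which 5 were class II genes, H2-Eb1, H2-DMb1, H2-Eb2, H2-DMb2 and H2-Ob. No match to these 3 motifs was found in the windows of Flt3 and Cd209a. The windows listed for H2-DMa lie far upstream of its deposited gene model and are not shown. The motifs were written with the class II windows in view, and a match is a description of these letters only.

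Values given for 4 libraries are in the order of libraries 1 to 4 of each genotype throughout. Library totals ran from 10986375 to 21688464 counts. Atg3, the deleted gene, had 49.0, 44.4, 53.5 and 53.4 CPM (read counts scaled to library size with TMM factors) in wild-type libraries 1 to 4 and 30.5, 32.1, 30.7 and 27.7 CPM in knockout libraries 1 to 4, so each library lay on the side of its label (log2 fold change -0.73, edgeR adjusted p = 0.0168). The Atg3 value lay between -0.78 and -0.69 in all alternatives, but 7 of the 21 alternatives lost the call. Among them were the edgeR fits that left out 1 library, with an adjusted p of 0.0543 (wild-type 1), 0.0705 (wild-type 4) and 0.0745 (knockout 2). Adipoq, the adipocyte gene for adiponectin, had 2447, 3187, 3986 and 2682 CPM (wild-type) and 2367, 2150, 2208 and 2267 CPM (knockout), without overlap. Its log2 fold change was -0.45 (edgeR adjusted p = 0.218), which did not pass the test. Knockout libraries 2 and 3 stood apart by 13 duct epithelium genes, a list that includes Epcam and Foxj1, with summed levels of 491 and 499.7 CPM. The sums were 35.1 and 44.9 CPM in knockout libraries 1 and 4 and 8.92 to 20.9 CPM in the wild-type libraries. Mitochondrial reads made up 5.03 to 6.08% of counts in knockout and 3.05 to 4.93% in wild-type libraries.

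The first comparison asked whether the class II and dendritic cell transcripts differed between the genotypes. No member passed an adjusted p of 0.05 with edgeR's quasi-likelihood test, 0 of 10, against a background of 0.405% of the 14800 genes tested (60 genes), 0.277% higher and 0.128% lower in the knockout. DESeq2 and limma-voom also called 0 members, where over all 14800 genes tested they called 810 and 45 genes. An unadjusted p under 0.05 was reached by 5 members, Cd74, H2-Ab1, H2-Eb1, H2-DMa and H2-DMb1, all with higher means in the knockout, where 16.2% of all genes tested reached it in either direction and 8.52% with a higher level in the knockout. That count changed when single libraries were left out. It was 0 without wild-type library 2, 3 or 4, 1 without knockout library 1, 2 without knockout library 4 and 6 without wild-type library 1. Without wild-type library 2 these 5 genes had log2 fold changes of 0.37 to 0.49, with unadjusted edgeR p of 0.0549 to 0.0923. It was 2 with library size alone as the scaling and 1 with the mean of the duct epithelium genes as a covariate. Of the 10 log2 fold changes 8 were positive, as were 47.6% over all genes tested, and their median was 0.39, beside a median of -0.01 over all genes tested. For 0 of the 10 members did the genotypes not overlap, against 8.86% of all genes tested. The members were chosen with earlier results of these data known, so these counts describe the list and carry no test.

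**Figure D1:**
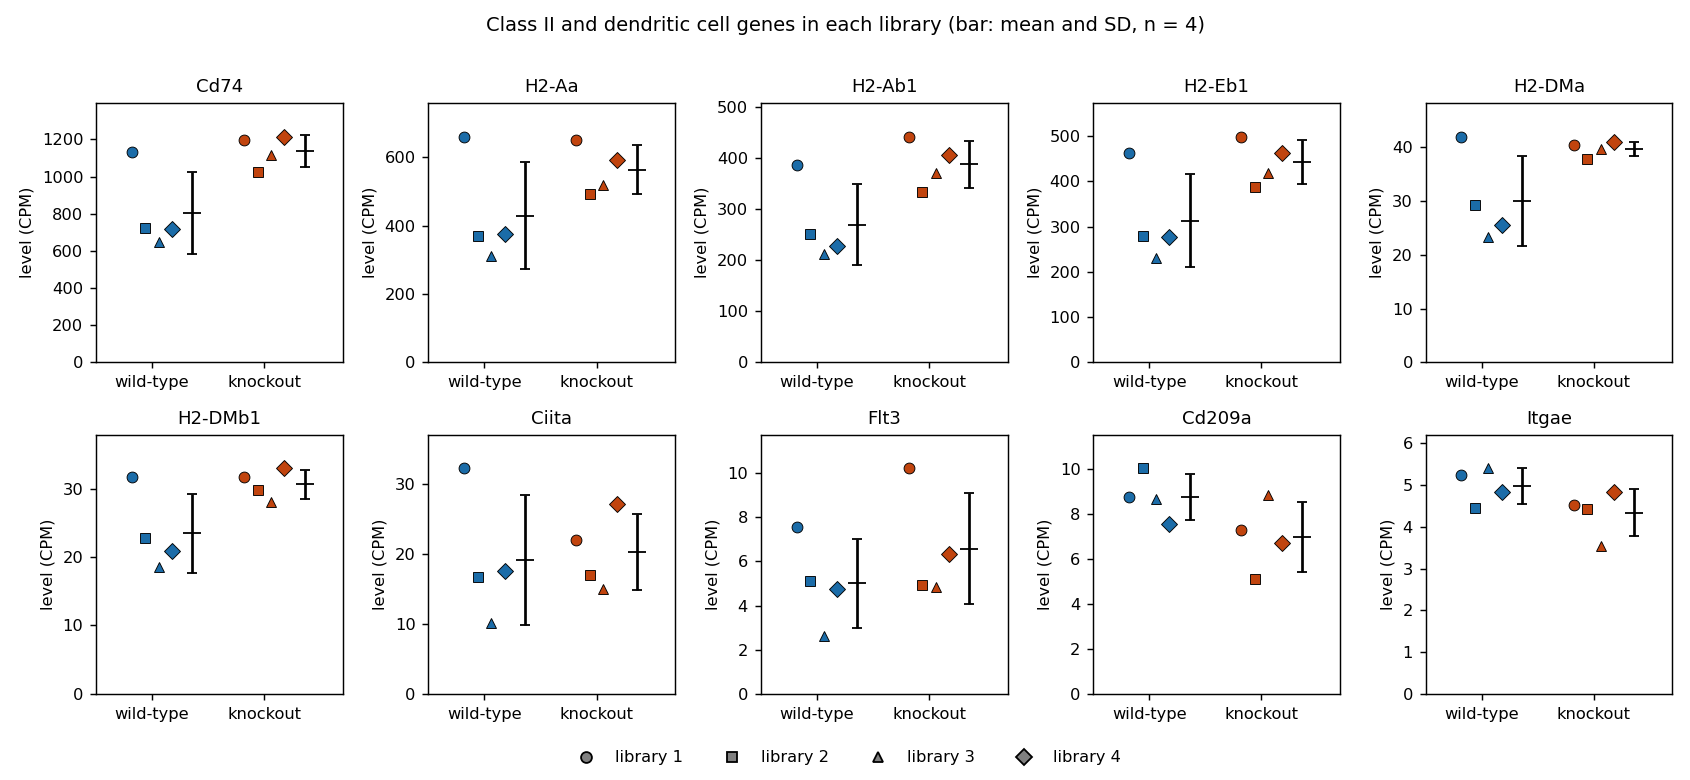
Level of each of the 10 genes (vertical axis, CPM, from 0) in the 4 wild-type (blue) and 4 knockout (orange) libraries, marker shape giving the library number and black bars the mean and SD of 4 libraries. For the 6 class II genes other than Ciita, wild-type library 1 (blue circle) is as high as the knockout libraries and wild-type libraries 2 to 4 lie below all of them.

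Cd74, the invariant chain gene on chromosome 18 (60803848 to 60812646, plus strand, mm10), was the most abundant member. Its level was 1131, 723, 649 and 717 CPM (wild-type) and 1196, 1025, 1119 and 1213 CPM (knockout). Wild-type library 1 lay inside the knockout range and the other 3 wild-type libraries lay below it, so the genotypes overlapped through 1 library. In whole tissue, a different number of cells of a type and a different amount of RNA per cell cannot be told apart. The means were 805 ± 220.0 CPM for wild-type and 1138 ± 86.1 CPM for knockout mice (SD, n = 4), 1.41-fold apart (log2 fold change 0.50, SE 0.177, edgeR adjusted p = 0.213), and the difference did not pass the test. A microRNA gene, Mir5107, lies inside Cd74 on the same strand, and the labels do not state how reads in it were assigned.

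The peptide-binding chains showed the same split between libraries. H2-Aa encodes the alpha chain of I-A, and H2-Ab1 and H2-Eb1 encode the beta chains of I-A and I-E. H2-Aa, at 34269331 to 34287827 on the minus strand of chromosome 17, had 659, 370.0, 312 and 375 CPM in the wild-type mice against 649.7, 492, 518 and 591 CPM in the knockouts. Here wild-type library 1 was above every knockout library. H2-Ab1, at 34263209 to 34269418 on the plus strand, had 386, 251, 212 and 228 CPM (wild-type) and 441, 334, 371 and 405 CPM (knockout). H2-Eb1, at 34305883 to 34316199 on the plus strand, had 463, 279, 232 and 277 CPM in the wild-type mice against 498, 387, 419 and 463 CPM in the knockouts. In both beta chain genes wild-type library 1 fell within the knockout range and the other 3 wild-type libraries below it. The log2 fold change was 0.39 for H2-Aa (SE 0.224, edgeR adjusted p = 0.430), 0.53 for H2-Ab1 (SE 0.189, adjusted p = 0.219) and 0.50 for H2-Eb1 (SE 0.204, adjusted p = 0.272). The ends of the H2-Aa and H2-Ab1 models overlap on opposite strands, and the labels do not state whether strand was used in counting, so reads there are uncertain.

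The peptide editor genes were lower in abundance and showed the same split. H2-DMa, the alpha chain of the editor (chromosome 17, 34135182 to 34139101, plus strand), had 41.9, 29.2, 23.2 and 25.5 CPM (wild-type) and 40.3, 37.9, 39.6 and 40.9 CPM (knockout). The 4 knockout libraries lay within a narrow band, 39.7 ± 1.31 CPM, whereas the wild-type libraries spread over 29.97 ± 8.31 CPM (SD, n = 4). Wild-type library 1 was above all 4 knockout libraries. H2-DMb1, a beta chain (chromosome 17, 34153072 to 34160223, plus strand), had 31.8, 22.8, 18.5 and 20.9 CPM in the wild-type mice against 31.7, 29.8, 28.1 and 32.9 CPM in the knockouts. Neither passed: the log2 fold change was 0.41 for H2-DMa (SE 0.166, edgeR adjusted p = 0.273) and 0.38 for H2-DMb1 (SE 0.158, adjusted p = 0.274). Of the 50-base runs in H2-DMb1 transcripts of GENCODE vM21 22.7% also occur in its neighbour H2-DMb2, so part of its count is uncertain. Of the runs in H2-DMa transcripts 8.43% occur in Brd2 transcripts, with both strands searched. The H2-DMa transcripts held 3723 runs and the deposited H2-DMa model 1641 exonic bases, so the runs shared with Brd2 may lie outside that model.

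Ciita, the coactivator gene (chromosome 16, 10480144 to 10527564, plus strand), did not share this pattern between the genotypes. It had 32.2, 16.7, 10.1 and 17.6 CPM (wild-type) and 21.96, 17.004, 14.9 and 27.1 CPM (knockout). Wild-type library 1 was the highest and wild-type library 3 the lowest of the 8, and the knockout libraries lay between them. The means were 19.2 ± 9.30 and 20.3 ± 5.45 CPM (SD, n = 4; log2 fold change 0.09, SE 0.327, edgeR adjusted p = 0.925). The sign of this value was negative without wild-type library 3 (-0.12) or knockout library 4 (-0.09) and the value was 0.45 without wild-type library 1, so no direction was settled.

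The 3 dendritic cell genes were at low levels, from 32 to 171 reads per library, which limits their precision. Flt3, the receptor for the growth factor that dendritic cell precursors depend on (chromosome 5, 147330741 to 147400489, minus strand), had 7.55, 5.10, 2.62 and 4.77 CPM in the wild-type mice against 10.2, 4.95, 4.82 and 6.33 CPM in the knockouts. The genotypes overlapped, the first library of each was its highest, and the log2 fold change of 0.39 (SE 0.349, edgeR adjusted p = 0.626) was 0.10 without knockout library 1. Cd209a, a C-type lectin of dendritic cells (chromosome 8, 3743395 to 3748984, minus strand), had 8.75, 10.0, 8.68 and 7.58 CPM (wild-type) and 7.29, 5.10, 8.83 and 6.71 CPM (knockout). Its mean was lower in the knockout, opposite in sign to the class II genes (log2 fold change -0.33, SE 0.189, adjusted p = 0.437). Itgae, the integrin chain CD103 found on some dendritic cells and on T cells of epithelia (chromosome 11, 73090583 to 73147446, plus strand), had 5.23, 4.46, 5.40 and 4.83 CPM in the wild-type mice against 4.53, 4.44, 3.53 and 4.84 CPM in the knockouts (log2 fold change -0.20, SE 0.172, adjusted p = 0.616). Neither Cd209a nor Itgae set wild-type library 1 apart. Gsg2 overlaps Itgae on the opposite strand.

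The distance between the genotypes depended on wild-type library 1. In the 6 class II genes other than Ciita its level was 1.53 to 1.87 times the mean of the other 3 wild-type libraries, and the knockout means were 1.48 to 1.68 times that mean. In each of these 6 genes all 4 knockout libraries were above wild-type libraries 2 to 4, by at least 1.23-fold between the nearest libraries (H2-DMb1) and at most 1.42-fold (Cd74); the same held for 6.55% of all genes tested. Wild-type library 1 was singled out after these values were seen, so this is a description and not a test. Without it the log2 fold changes were 0.71 for Cd74 (edgeR adjusted p = 0.0679), 0.68 for H2-Aa (0.107), 0.75 for H2-Ab1 (0.0693), 0.75 for H2-Eb1 (0.0698), 0.61 for H2-DMa (0.0679) and 0.56 for H2-DMb1 (0.1005). None of these 6 genes passed, and over all genes only 7 of 15035 tested passed in that fit.

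**Figure D2:**
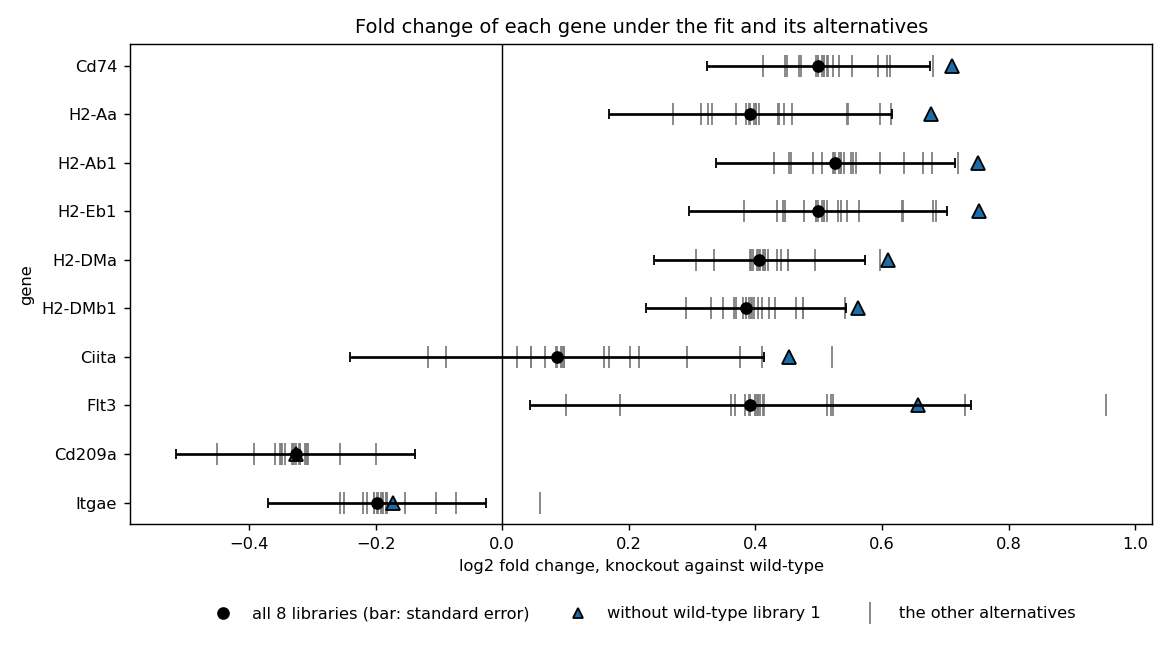
Log2 fold change of knockout against wild-type (horizontal axis) for each gene (vertical axis): black points and bars are the fit of all 8 libraries with its standard error, blue triangles the fit without wild-type library 1, and grey ticks the other alternatives. The 6 class II genes other than Ciita stay above 0 throughout, from 0.27 to 0.75, and Ciita lies on both sides of 0.

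Lymphocyte markers were highest in the same library. The 9 B cell genes summed to 316, 66.9, 85.9 and 132.8 CPM (wild-type) and 154, 81.6, 103 and 88.6 CPM (knockout), and each of the 9 was highest in wild-type library 1. Fcer2a, the IgE receptor of B cells, was 39.6 CPM in wild-type library 1 and at most 15.1 CPM elsewhere. The 11 T cell genes summed to 234, 70.4, 67.4 and 111 CPM (wild-type) and 153, 88.5, 108 and 74.7 CPM (knockout), and all 11 were highest in wild-type library 1, among them Cd8a, the CD8 alpha chain, at 22.3 CPM. No gene of either list was at 0 in any library. The B cell sum of knockout library 1 (154 CPM) was above those of wild-type libraries 2 to 4 (66.9 to 132.8 CPM). Knockout libraries 2 to 4 held B cell sums of 81.6 to 103 CPM, within that range. The part of B or T cells in the class II levels of wild-type library 1 or of the knockout libraries was not tested.

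**Figure D3:**
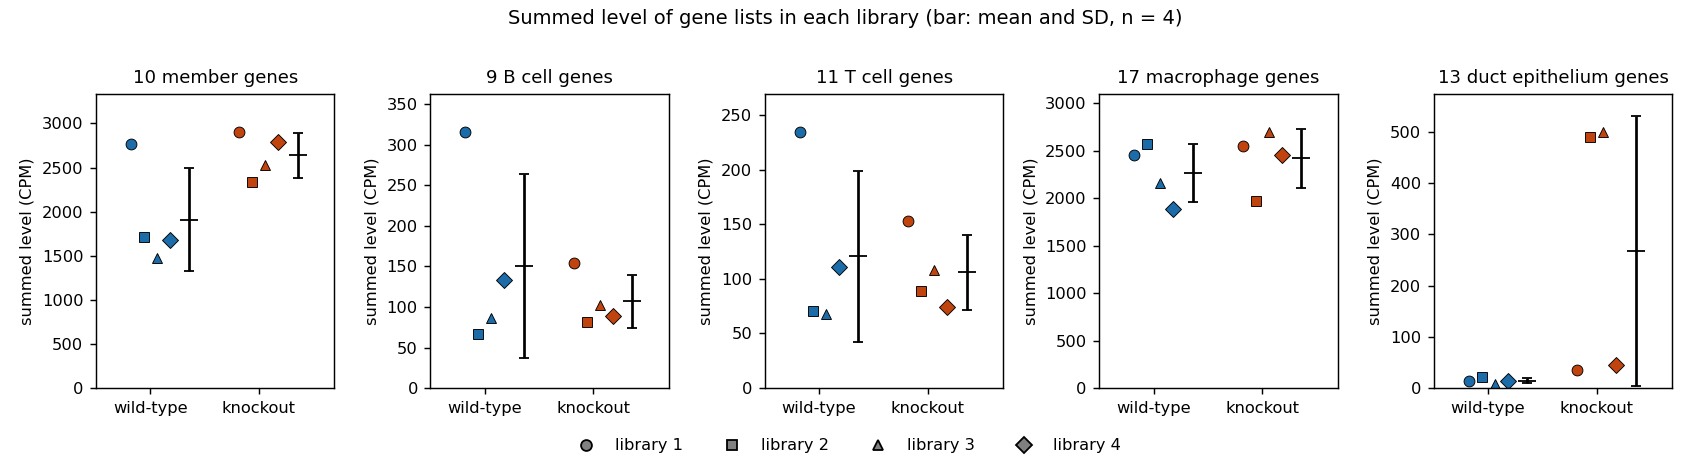
Summed CPM (vertical axes, from 0) of the 10 members and of 4 marker lists in the 4 wild-type (blue) and 4 knockout (orange) libraries, with mean and SD of 4 libraries in black. B cell and T cell sums are highest in wild-type library 1, macrophage sums overlap between genotypes, and duct epithelium sums are highest in knockout libraries 2 and 3.

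A pair of fits chosen after these values were seen took the lymphocyte markers into account. With the mean log2 CPM of the B cell list as a covariate, the log2 fold change was 0.61 for Cd74 (edgeR adjusted p = 0.1005), 0.55 for H2-Aa (0.153), 0.63 for H2-Ab1 (0.106), 0.63 for H2-Eb1 (0.101), 0.49 for H2-DMa (0.168) and 0.46 for H2-DMb1 (0.174). Without library 1 of both genotypes, the libraries with the highest B and T cell sums, the same genes had values from 0.54 (H2-DMb1) to 0.69 (H2-Eb1), with adjusted p from 0.0815 to 0.104. No member passed in either fit, and 0.291% of all genes tested passed in the first (43 genes) and 0 in the second.

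In each of the 6 class II genes other than Ciita, the duct-rich knockout libraries 2 and 3 were the lowest of the 4 knockout libraries. Without both of them the log2 fold changes of the 6 class II genes ran from 0.45 (H2-DMa) to 0.66 (H2-Ab1), with edgeR adjusted p from 0.511 to 0.641. With the mean of the duct epithelium list as a covariate they ran from 0.41 (H2-DMa) to 0.72 (H2-Ab1), with adjusted p from 0.553 to 0.695. The part of duct tissue in the class II values was not tested.

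Of 12 adipocyte genes 11 had lower and 1 had a higher mean in the knockout. They summed to 36039 to 44801 CPM (wild-type) and 29317 to 34470.0 CPM (knockout), and 0 of the 12 passed over all genes with edgeR (5 at an unadjusted p under 0.05). These sums did not overlap. Without Cfd, which encodes adipsin, those of the other 11 genes did, at 26938 to 38273 and 23785 to 30710 CPM. The genotypes did not overlap in 4 of the 12 genes, against 8.86% of all genes tested. An unadjusted p under 0.05 with edgeR was reached by 16.2% of all genes tested. Plin4, a lipid droplet coat gene, had 4725 ± 866 and 2564 ± 263 CPM (SD, n = 4; adjusted p = 0.0630), and Slc2a4, the insulin-regulated glucose transporter, 219 ± 48.7 and 122 ± 32.5 CPM (adjusted p = 0.140). The gene with the higher mean was Cidec, a lipid droplet fusion gene (log2 fold change 0.47, adjusted p = 0.330). Cfd and Cidec were named after their values were seen. The part of the adipocyte values in the class II values was not tested.

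Macrophages, which also carry class II molecules, gave overlapping sums. The 17 macrophage genes summed to 2455, 2567, 2161 and 1891 CPM in the wild-type mice against 2554, 1974, 2697 and 2458 CPM in the knockouts, and 0 of 17 passed in either direction (edgeR, 3 at an unadjusted p under 0.05), with 10 positive and 7 negative log2 fold changes and a median of 0.11. An unadjusted p under 0.05 was reached by 16.2% of all genes tested. The 4 genes of the macrophage list with the lowest p are named. Cd163, a scavenger receptor of resident macrophages, had 41.1 ± 8.63 and 26.5 ± 6.75 CPM (SD, n = 4; log2 fold change -0.63, adjusted p = 0.186) and Folr2, a folate receptor of the same cells, had a log2 fold change of -0.48 (adjusted p = 0.287). Mrc1, the mannose receptor, was at -0.25 (adjusted p = 0.335) and Cd14, the endotoxin coreceptor, at 0.46 (adjusted p = 0.213). The sum of the 6 class II genes divided by the macrophage sum was 1.10, 0.653, 0.669 and 0.869 (wild-type) and 1.12, 1.17, 0.925 and 1.12 (knockout). Wild-type libraries 2 to 4 were again below all knockout libraries, and wild-type library 1 within their range.

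Within libraries the class II genes kept close proportions. The ratio of H2-Eb1 to Cd74 lay between 0.357 and 0.416 in all 8 libraries and that of H2-Ab1 to Cd74 between 0.319 and 0.369, although Cd74 itself varied 1.87-fold. The ratio of H2-Aa to Cd74 lay between 0.463 and 0.583 and that of H2-DMa to H2-DMb1 between 1.22 and 1.41. H2-Aa departed slightly from its partner: H2-Aa over H2-Ab1 was 1.71, 1.47, 1.47 and 1.64 in the wild-type mice against 1.47, 1.47, 1.40 and 1.46 in the knockouts. Wild-type libraries 1 and 4 had the highest values. Ciita per 100 Cd74 reads was 2.84, 2.31, 1.56 and 2.45 (wild-type) and 1.84, 1.66, 1.34 and 2.24 (knockout), and overlapped. H2-Ob, the beta chain of the H2-O inhibitor that B cells make, was 107, 37.1, 48.2 and 85.9 per 100 H2-DMa reads in wild-type and 60.4, 28.7, 42.5 and 36.6 in knockout libraries 1 to 4.

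**Figure D4:**
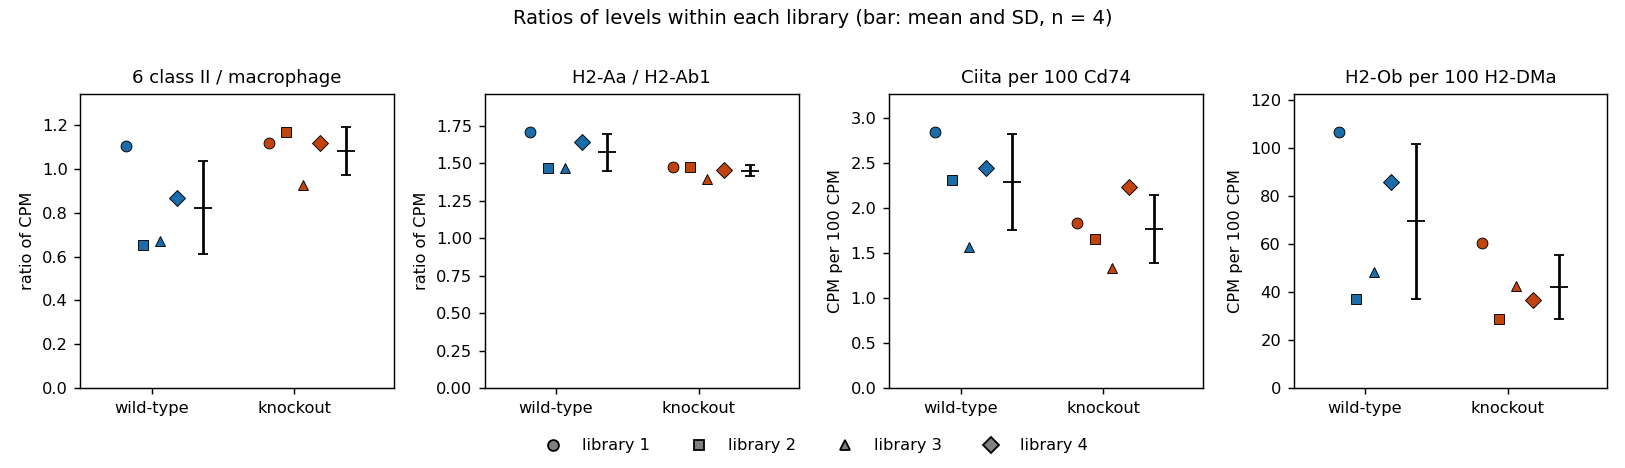
Ratios of CPM within each library (vertical axes, from 0) for the 4 wild-type (blue) and 4 knockout (orange) libraries, with mean and SD of 4 libraries in black. Wild-type libraries 1 and 4 (circle and diamond) are the highest of all in H2-Aa over H2-Ab1 and in H2-Ob per 100 H2-DMa, while the first panel sets wild-type library 1 among the knockout libraries.

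Scaled to exonic length (CPM per kilobase), the levels spanned a wide range. In wild-type fat Cd74 stood at 571 ± 156, H2-Eb1 at 263 ± 86.4, H2-Aa at 216 ± 78.5 and H2-Ab1 at 164 ± 48.1 CPM per kilobase (SD, n = 4). These 3 chain genes overlapped in their spread over libraries, but H2-Eb1 was above H2-Aa and H2-Aa above H2-Ab1 within each of the 8 libraries. The editor genes followed, H2-DMa at 18.3 ± 5.06 and H2-DMb1 at 15.9 ± 3.91 CPM per kilobase, with overlapping spread in wild-type fat. H2-DMa was above H2-DMb1 within each of the 8 libraries, and in knockout fat they stood at 24.2 ± 0.795 and 20.7 ± 1.45 CPM per kilobase. Cd209a was at 5.90 ± 0.675, Ciita at 3.09 ± 1.497, Itgae at 1.09 ± 0.0924 and Flt3 at 0.811 ± 0.327 CPM per kilobase. In knockout fat the order was the same except that Flt3 (1.07 ± 0.407) stood above Itgae (0.946 ± 0.123), a pair that did not differ beyond its spread in either genotype. Cd209a (4.71 ± 1.04) and Ciita (3.26 ± 0.877) also overlapped in their spread there.

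The next comparison took other genes of class II presentation, from a list chosen by function. Of 14 genes 0 rose and 0 fell (edgeR, 0 at an unadjusted p under 0.05, beside 16.2% of all genes tested). Log2 fold changes were positive in 8 and negative in 6 genes, and the median was 0.02. Ctss, the protease that trims the invariant chain, had 229 ± 74.4 and 275 ± 61.6 CPM (SD, n = 4; log2 fold change 0.26, adjusted p = 0.634). Ifi30, a thiol reductase of lysosomes, had a log2 fold change of 0.21 (adjusted p = 0.507), Lgmn, the protease legumain, 0.12 (adjusted p = 0.704) and Ctsb, cathepsin B, -0.15 (adjusted p = 0.663). H2-Ob, named after its values were seen, had 44.6, 10.8, 11.2 and 21.9 CPM in the wild-type mice against 24.3, 10.9, 16.9 and 14.96 CPM in the knockouts (log2 fold change -0.40, adjusted p = 0.713). Its log2 fold change was 0.19 without wild-type library 1. Unlike the 6 members, it did not set wild-type libraries 2 to 4 below the knockout libraries.

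Regulators of class II transcription also gave 0 calls in 19 genes (edgeR, 2 at an unadjusted p under 0.05). Of all genes tested 16.2% reached that p. The median log2 fold change of the list was -0.04. Spi1 (PU.1, a myeloid transcription factor, listed under its older name) had 28.6, 21.8, 19.5 and 19.3 CPM (wild-type) and 32.6, 25.0, 26.2 and 33.2 CPM (knockout) (log2 fold change 0.39, adjusted p = 0.256). Wild-type libraries 2 to 4 lay below all knockout libraries here too. Ifngr2, a chain of the interferon gamma receptor, had 49.2 ± 0.707 and 43.1 ± 1.80 CPM without overlap (SD, n = 4; log2 fold change -0.19, adjusted p = 0.186). Rfxap, a subunit of the RFX complex, was at -0.25 (adjusted p = 0.311) and Crebbp, a histone acetyltransferase that CIITA recruits, at -0.29 (adjusted p = 0.394). Rfx5, a DNA-binding subunit of that complex, had 26.4 ± 1.63 and 25.8 ± 2.23 CPM and was named after its values were seen.

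Another list held MHC class I genes, which present peptides to CD8+ T cells. Of 14 genes 0 passed in either direction (edgeR, 3 at an unadjusted p under 0.05, which 16.2% of all genes tested reached). Negative values were found in 10 and positive values in 4 genes, where 47.6% of all genes tested were positive. The median log2 fold change was -0.07, beside -0.01 over all genes tested. H2-D1, a class I heavy chain, had 1341, 1333, 1269.6 and 1180.2 CPM in the wild-type mice against 996, 909.9, 1011 and 891 CPM in the knockouts, without overlap (log2 fold change -0.43, SE 0.0970, adjusted p = 0.107). H2-K1, another class I heavy chain of the list, had 1039 ± 157 and 1092 ± 121 CPM (SD, n = 4). Its log2 fold change was 0.07 (edgeR adjusted p = 0.837), and it was named after its values were seen. Class I genes have close copies, so the counts of H2-D1 and H2-K1 are uncertain. Nlrc5, the class I counterpart of CIITA, had 60.1 ± 14.6 and 41.0 ± 9.75 CPM (SD, n = 4; log2 fold change -0.55, adjusted p = 0.226). Calr, a chaperone of the endoplasmic reticulum, was at -0.19 (adjusted p = 0.301) and Tapbp, tapasin, at 0.17 (adjusted p = 0.398).

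Other genes of conventional dendritic cells gave 0 calls in 20 tested genes (edgeR, 3 at an unadjusted p under 0.05). Over all genes tested 16.2% reached that p. In the list 14 values were positive and 6 negative, with a median log2 fold change of 0.12. Itgax, the integrin chain CD11c, had 41.4, 41.3, 21.9 and 34.3 CPM (wild-type) and 59.3, 36.4, 44.3 and 49.7 CPM (knockout) (log2 fold change 0.45, adjusted p = 0.342). Csf2ra, a receptor chain for the growth factor GM-CSF, had 37.6 ± 2.86 and 53.5 ± 10.3 CPM without overlap (SD, n = 4; log2 fold change 0.51, adjusted p = 0.137). Csf2rb, the other chain of that receptor, had 86.6 ± 12.6 and 72.5 ± 10.3 CPM, with overlap. Its log2 fold change was -0.25 (edgeR adjusted p = 0.387), opposite in sign to Csf2ra. Clec10a, a lectin of dendritic cells and macrophages, had 57.8 ± 2.10 and 38.2 ± 9.40 CPM without overlap (log2 fold change -0.59, adjusted p = 0.138), the same sign as Cd209a. Cadm1, an adhesion gene of the type 1 subset that epithelia also make, had 19.1, 38.6, 39.3 and 18.8 CPM in knockout libraries 1 to 4 and 7.56 to 16.2 CPM in wild-type (adjusted p = 0.141), and was highest in the duct-rich libraries. Xcr1 and Clec9a, a chemokine receptor and a lectin that mark the type 1 subset, held 1.47 to 3.99 and 2.46 to 9.83 CPM. Both overlapped between genotypes (log2 fold change 0.43 and 0.50, adjusted p = 0.547 and 0.488). Batf3, of the same list, had 3.10 ± 0.401 and 4.07 ± 0.567 CPM without overlap (log2 fold change 0.39, adjusted p = 0.349). Zbtb46, a transcription factor of conventional dendritic cells and endothelium, had 40.9 ± 10.3 and 39.1 ± 5.71 CPM (adjusted p = 0.897). Csf2rb, Xcr1, Clec9a, Batf3 and Zbtb46 were named after their values were seen.

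Plasmacytoid dendritic cell genes gave 0 calls in 7 tested genes (edgeR, 1 at an unadjusted p under 0.05). Of all genes tested 16.2% reached that p. Of the 7 genes 6 had negative values, with a median log2 fold change of -0.30. Tcf4, their defining transcription factor, which other cells also make, had 161 ± 18.5 and 130.2 ± 7.48 CPM without overlap (SD, n = 4; log2 fold change -0.30, adjusted p = 0.176). Siglech, a surface lectin of these cells, had 3.36 ± 1.07 and 2.29 ± 0.544 CPM (adjusted p = 0.376).

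The genes most like the class II members over the 8 libraries were taken by their Pearson r of log2 CPM with the mean of the 7 standardised class II genes. The 8 highest, among all other tested genes, were Bcl3, a partner of NF-kappa B (r = 0.98), Pik3ap1, a signalling adaptor of B cells and myeloid cells (0.97), Thap1 (0.97), the unnamed gene ENSMUSG00000044138 (0.96), Lass6, a ceramide synthase (0.96), Pbx3 (0.96), Kcnab2 (0.96) and Rps6ka1, a kinase downstream of ERK (0.95). They were selected for the highest r, the libraries share their depth scaling, and no test is attached. Pik3ap1 had 31.2 ± 9.85 CPM (wild-type) and 39.8 ± 6.47 CPM (knockout) (SD, n = 4; edgeR adjusted p = 0.446), and none of the 8 passed the test (adjusted p from 0.270 to 0.658). By the same measure Ciita stood at 0.82, Flt3, which was not part of the mean, at 0.84, Cd209a at -0.33 and Itgae at -0.24, whereas the other 6 class II genes, which are part of the mean, were between 0.98 and 0.99.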

How the data were processed

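Polyadenylated RNA of epididymal fat from 4 wild-type and 4 knockout mice was sequenced as single reads of 50 cycles from strand-specific libraries, per the labels' protocols. Novoalign 2.8.1, Picard and build mm10 are listed, without role or order, in the submitters' processing notes, and the sources used here give neither counting program nor annotation. In 1 table the authors deposited a raw read count and an FPKM value per gene and library, per the file headers, with exonic length in bases (a length, not a score). All 158499 deposited FPKM values above 0 equal the count scaled to gene length and library total within 0.1%. They were used only for this check; levels per kilobase were computed from TMM-scaled CPM. Deposited starts are counted from 0 (21270 of 24046 genes with the same end in GENCODE vM21 start 1 base later there), so 1 was added.

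Genes were kept by filterByExpr (minimum count 10; 14800 of 37417), scaled by TMM and compared with edgeR 4.0.16 in R 4.3.3 (quasi-likelihood F test, no covariate, Benjamini-Hochberg over all genes tested, called at 0.05). Standard errors derive from the test. DESeq2 1.42.0 and limma 3.58.1 (voom) were alternatives, as were other scalings and filters, robust dispersion, a replicate block, covariates and left-out libraries. The script was tested on simulated data. P-values measure only the spread between these samples. Library pairs of a genotype differed by at least 20.8 in chi-square per gene, so none was a duplicate.

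The members and the 12 companion lists were chosen with earlier results of these data known. The rule for named genes took all members, Atg3, up to 4 genes of each list with the lowest p and a mean of at least 1 CPM, and the 8 genes most like the class II members; genes named outside it are marked, apart from Adipoq, Epcam and Foxj1 as markers, and not every gene that the rule took is printed. Psmb9 and Ccl21a were not analysed here. Lymphoid stroma (sums of 17.6 to 99.8 CPM) and mesothelium (65.3 to 341 CPM) overlapped between genotypes. Both gave 0 calls with edgeR (0 and 1 genes at an unadjusted p under 0.05, beside 16.2% of all genes tested).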

Additional observations from a re-analysis of the deposited data

Results flagged for a closer look

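In 3 of 134 groups of 4 libraries examined, 1 library lay far from the other 3, by a gap above Dixon's 95% limit as a share of the group's whole range; chance flags about 1 group in 20. Cd74 was 1131 CPM in wild-type library 1, a gap of 0.845 of the wild-type range. Nlrc5 was 55.6 CPM in knockout library 1, a gap of 0.958 of the knockout range. The summed level of the plasmacytoid dendritic cell genes was 289 CPM in knockout library 1, a gap of 0.844 of the knockout range.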

How the results depend on the processing

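In turn, leaving out 1 library moved Ciita between -0.12 and 0.45, H2-Ob between -0.63 and 0.19, Rfx5 between -0.075 and 0.023, Zbtb46 between -0.18 and 0.061, Fcer2a between -1.14 and 0.13 and Cd8a between -0.97 and 0.54 (log2 fold changes). The 21 alternatives called 0 of the 10 members, with 5 at an unadjusted p under 0.05 in the edgeR fit of all libraries and 0 to 6 when 1 library was left out (0 without wild-type library 2, 3 or 4). Atg3 lost its call with the replicate block (adjusted p = 0.111), with the duct covariate (0.262), without knockout libraries 2 and 3 (0.0989), without library 1 of both genotypes (0.0815) and without wild-type library 1, wild-type library 4 or knockout library 2 (0.0543 to 0.0745). Over all genes, edgeR called 60, DESeq2 810, the duct epithelium covariate 2 and the fit without knockout libraries 2 and 3 called 3 genes. Without library 1 of both genotypes 0 genes passed (2347 at an unadjusted p under 0.05). Leaving out 1 library gave 0 to 290 genes; the lowest was without knockout library 2 (edgeR, 1573 at an unadjusted p under 0.05) and the highest without knockout library 1. The other counts more than 1.5-fold away from the main one were all lower. They were 7 (wild-type library 1 left out), 4 (wild-type library 2), 20 (wild-type library 3), 8 (wild-type library 4) and 23 (knockout library 3). Of 138 tested genes of the companion lists 0 passed with edgeR (26 at an unadjusted p under 0.05), 16 with DESeq2 (10 higher, 6 lower) and 1 with library size alone, and leaving out 1 library gave 0 to 11, with 11 without knockout library 1. In the edgeR fit of all libraries 16.2% of all genes tested had an unadjusted p under 0.05. The cause of the differences between fits was not tested.

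With the replicate block 14 genes passed over all genes and 1 of the companion lists, and 0 members. Same-numbered libraries deviated together with correlations of 0.177, -0.0928, -0.213 and 0.0593, so the numbers were not taken to pair the mice, and not every library correlated best with its own number. The block changed no call of a member.

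Of 210 values of the members 3 reversed, log2 fold changes of Ciita without wild-type library 3 (-0.12) and without knockout library 4 (-0.09) and of Itgae with the duct covariate (0.060). With the duct covariate Ctsb was at 0.069 and H2-Ob at 0.041. Without wild-type library 1 H2-Ob was at 0.19, Rfx5 at 0.0066, Zbtb46 at 0.061, Fcer2a at 0.13 and Cd8a at 0.54. With the B cell covariate H2-Ob was at 0.058, Fcer2a at 0.12 and Cd8a at 0.35. Without library 1 of both genotypes Zbtb46 was at 0.033, Fcer2a at 0.057 and Cd8a at 0.088. Rfx5 was at 0.023 without knockout library 4, and Zbtb46 at 0.024 without wild-type library 2 and 0.036 without knockout library 2. None of these genes passed the edgeR test of all libraries. Flt3, Cd209a and Itgae rest on 32 to 171 reads a library, which limits their precision.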
